A study of Homo sapiens with 9 samples.

Results

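10 genes of the WNT pathway were followed in IMR90 cells, human lung fibroblasts that divide a limited number of times in culture. They are the ligands WNT2, WNT5A and WNT5B, the receptors FZD7 and LRP6, and the feedback target AXIN2. The secreted proteins DKK1, DKK2, DKK3 and SFRP1 are grouped here as antagonists. The 10 were taken by name from 64253 gene identifiers and matched to the count files by identifier, and each symbol had 1 identifier. RNA sequencing covered 9 libraries, 3 (a, b and c) in each of 3 groups. The control group carried the pLKO.1 lentiviral vector without a hairpin, labelled as an empty vector for the samples and as a GFP vector in the treatment protocol. In the shRRM2 group the vector held a hairpin against RRM2, a gene for 1 subunit of ribonucleotide reductase, which supplies dNTPs. Its label is senescence. The shRRM2/shp16 group carried that hairpin and one against p16, a cell cycle inhibitor encoded by CDKN2A, and its label is senescence bypass. All groups were infected 2 times, 24 hours apart, were kept at 2% oxygen, and went through 7 days of puromycin at 3 ug/mL at population doubling 30. A group with shp16 alone is not among the samples, so shp16 was seen only on top of shRRM2. The comparisons ask how WNT genes differ after RRM2 knockdown and how they differ once p16 is also targeted.

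WNT proteins are secreted, lipid-modified ligands that bind Frizzled receptors. With the co-receptors LRP5 and LRP6 they stabilise beta-catenin, which then acts with TCF/LEF factors on targets such as AXIN2. WNT5A is best known for signals through Frizzled and ROR receptors that do not use beta-catenin. SFRP proteins bind WNT ligands outside the cell, DKK1 and DKK2 bind LRP5 and LRP6, and WNT genes are expressed by lung fibroblasts during lung development.

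Promoter sequence was examined as a description only. WNT5A and WNT5B, close relatives, moved in opposite directions in shRRM2/shp16, and DKK1 is itself a known beta-catenin target. Whether promoter sequence bears on the changes of these genes was not tested. RefSeq promoter windows (GRCh38.p14, 300 bases, from 250 before to 50 after a start site) were found for 4 of the 10 genes, as 6 windows. Searched on both strands were the TCF/LEF word CTTTGAA with the variants that end in AT, TA or TT, the AP-1 word TGANTCA, and an NF-kB word of GGG, any 5 bases and CC. The 250 bases before 3 of these starts are shown 5′ to 3′ on the gene's strand, with matched words in capitals, for WNT5A at chr3:55481399-55481648 (minus strand), WNT5B at chr12:1616806-1617055 (plus strand) and DKK1 at chr10:52314031-52314280 (plus strand).
WNT5A: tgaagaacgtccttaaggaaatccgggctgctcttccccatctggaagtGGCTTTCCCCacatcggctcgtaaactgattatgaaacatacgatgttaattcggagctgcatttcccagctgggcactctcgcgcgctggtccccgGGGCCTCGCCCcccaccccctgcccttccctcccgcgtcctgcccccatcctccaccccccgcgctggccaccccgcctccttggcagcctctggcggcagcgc
WNT5B: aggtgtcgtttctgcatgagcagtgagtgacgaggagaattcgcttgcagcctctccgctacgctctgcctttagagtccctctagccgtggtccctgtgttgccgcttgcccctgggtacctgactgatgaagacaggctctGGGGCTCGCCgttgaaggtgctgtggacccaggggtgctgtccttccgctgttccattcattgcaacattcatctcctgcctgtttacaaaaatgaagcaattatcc
DKK1: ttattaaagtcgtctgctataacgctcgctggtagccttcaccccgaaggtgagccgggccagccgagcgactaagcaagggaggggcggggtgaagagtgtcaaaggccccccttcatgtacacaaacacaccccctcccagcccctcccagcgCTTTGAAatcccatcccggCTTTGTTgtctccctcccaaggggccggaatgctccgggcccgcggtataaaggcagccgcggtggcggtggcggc
In the DKK1 window the capitals are 2 TCF/LEF words, CTTTGAA starting 95 bases and CTTTGTT starting 76 bases before the start site. No other window of these genes held a TCF/LEF word, and 13.8% of all 35116 promoter windows in the table held at least 1. In WNT5A the capitals are 3 NF-kB words, of which the last 2 overlap, and in WNT5B they are 1 such word. Windows whose 250 bases overlap annotated untranslated regions were searched but not shown, namely those of WNT2 and the other ones of WNT5A and WNT5B. The other WNT5A window held 1 NF-kB word and the other WNT5B window held 0, fewer than the windows shown. An NF-kB word was present in 58.7% of all windows. AP-1 words, present in 7.71% of all windows, were found in none of the 6. The WNT5A stretch lies in an intron of longer WNT5A transcripts (GENCODE release 29), the WNT5B stretch lies in an exon of a WNT5B transcript without a coding sequence, and the DKK1 stretch overlaps an exon of the antisense gene PRKG1-AS1. These matches describe letters and not binding.

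Libraries held 15770895 to 24873291 counts assigned to genes, and 16561 genes passed the low-count filter. Nothing in the labels ties replicates to separate infections, so p-values measure the spread between these libraries, which may be technical. The fit estimates that spread for each gene partly from all tested genes, so a p-value does not rest on a gene's own libraries alone. RRM2 was at 480.98 to 491 CPM in control, 60.0 to 63.2 CPM in shRRM2 and 175 to 181 CPM in shRRM2/shp16, where CPM is the count divided by the scaled library size, on the usual CPM scale. Between shRRM2/shp16 and shRRM2 its log2 fold change was 1.51 ± 0.04 (SE). CDKN2A, on 79 to 142 counts per library, was at 5.95 to 6.15 CPM in control, 5.97 to 6.79 CPM in shRRM2 and 3.93 to 4.57 CPM in shRRM2/shp16. Its log2 fold change of 0.11 in shRRM2 against control was not called (edgeR adjusted p 0.431). Counts were by gene, so the p16 transcript was not told apart from other transcripts of CDKN2A. MKI67, a marker of dividing cells, was at 31.1% of control in shRRM2 and 37.6% in shRRM2/shp16. All 9 fibroblast markers were detected, summing to 27097 to 27964 CPM in control, 26446 to 27237 in shRRM2 and 22803 to 23403 in shRRM2/shp16. Single markers of that list went both ways in shRRM2/shp16, where PDGFRA was at 269% and COL3A1 at 211% of the control mean, and VIM at 40.1% and THY1 at 47.8%. Of the other cell types, the 6 epithelial markers (KRT5 at 0) summed to 24.3 to 25.3 CPM in control, 12.4 to 13.9 in shRRM2 and 3.49 to 5.70 in shRRM2/shp16, most of it CLDN4. The 5 endothelial markers summed to 65.3 to 70.5, 67.8 to 73.0 and 115 to 124 CPM, nearly all TEK, while CDH5 had at most 1 count in a library. Among reads assigned to a gene, to no annotated gene or ambiguously, the share over no annotated gene was 17.6 to 18.9% in control, 27.7 to 28.8% in shRRM2 and 23.5 to 24.4% in shRRM2/shp16. Alignments that were not unique, left out of this share, made up 43.2 to 44.3%, 40.3 to 43.0% and 43.9 to 44.9% of all records tallied. The part of these differences, and of the RRM2 level, in the results below was not tested. In bulk RNA, fewer cells that make a transcript and less of it per cell cannot be told apart.

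The data show a ligand and antagonist pattern that differed in all 3 groups. SFRP1 was nearly doubled in shRRM2 and fell below control in shRRM2/shp16, WNT5A rose in both, and WNT5B fell to 35.2% of control in shRRM2/shp16. AXIN2 was scarce in every library. Of the 9 genes tested, 7 were called in shRRM2 against control at an edgeR adjusted p under 0.05 (5 higher, 2 lower), where 60.9% of all tested genes were called (29.0% higher and 31.8% lower). In shRRM2/shp16 against shRRM2, 8 were called (3 higher, 5 lower) against a background of 61.1% (31.9% higher and 29.1% lower). In shRRM2/shp16 against control, 7 were called (2 higher, 5 lower) against 62.4% (30.0% higher and 32.4% lower). At least 2-fold changes were called for 0, 3 and 1 of the 9 (10.1%, 11.8% and 12.6% of all tested genes), and the groups did not overlap for 7, 8 and 8 of the 9 (63.6%, 64.7% and 66.2% of all tested genes). Most genes were called in each comparison, so sizes carry more than counts of calls. The median of the 9 log2 values was 0.23, -0.17 and -0.24 in that order, and of all tested genes 0.00, 0.01 and 0.01. DKK2 was the gene left out by the filter.

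**Figure D1:**
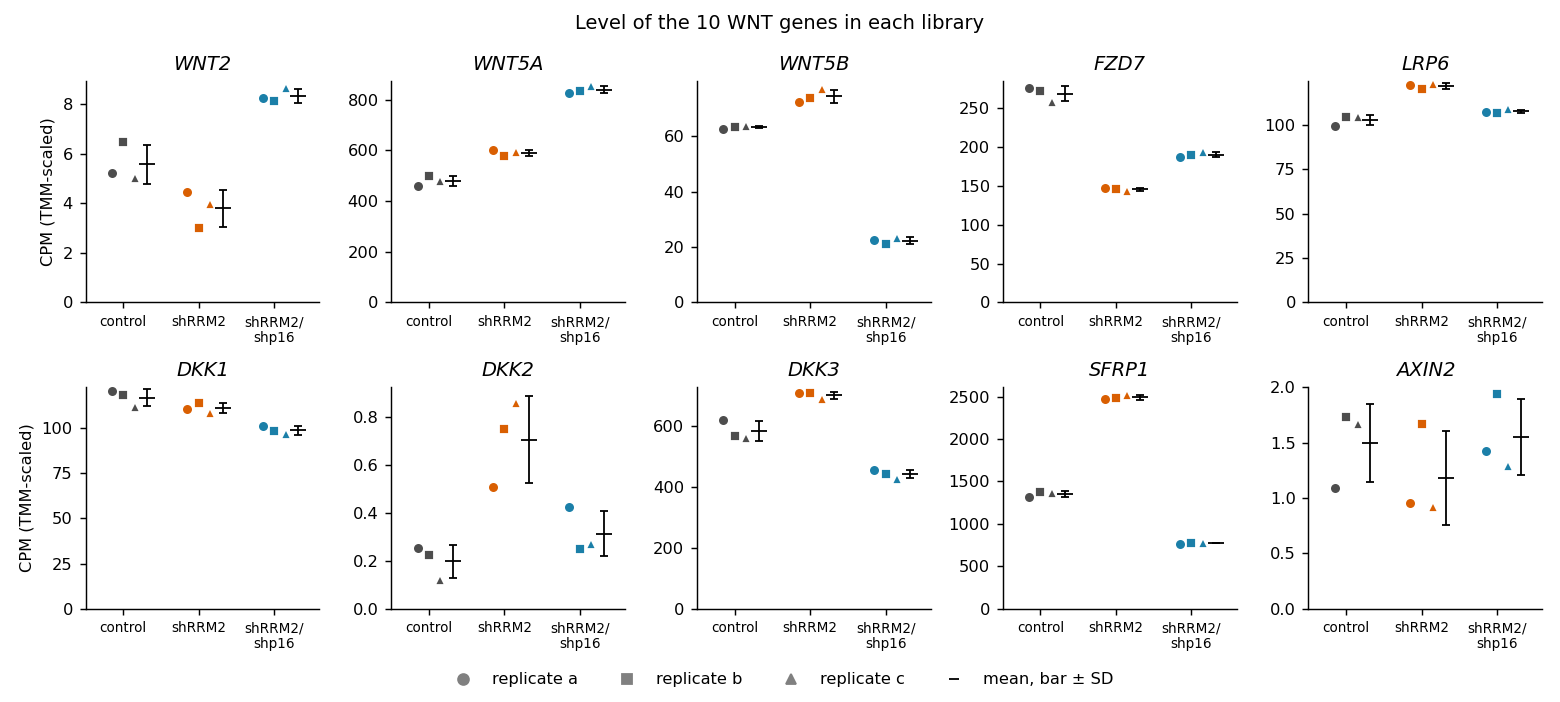
CPM of each of the 10 genes in each library (points; circle, square and triangle for replicates a, b and c), with the group mean and SD as bars. The scale starts at 0 and differs between panels. SFRP1 is highest in shRRM2 and lowest in shRRM2/shp16, WNT5A is highest and WNT5B lowest in shRRM2/shp16, and the AXIN2 groups overlap.

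Among the ligands, WNT5A (ENSG00000114251, GRCh38 chr3:55465715-55490539, minus strand) was the most abundant. Its level was 461, 500.02 and 479 CPM in control a, b and c, 599, 576 and 592 CPM in shRRM2, and 827, 835 and 853 CPM in shRRM2/shp16. The 3 groups did not overlap, and the level stepped up from control to shRRM2 and again to shRRM2/shp16. The log2 fold change was 0.30 ± 0.03 (SE) in shRRM2 against control (edgeR adjusted p 2.2e-12), 0.51 ± 0.03 in shRRM2/shp16 against shRRM2 (2.6e-20) and 0.81 ± 0.03 in shRRM2/shp16 against control (1.2e-27).

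WNT5B (ENSG00000111186, chr12:1529891-1647243, plus strand) encodes the ligand closest to WNT5A. It was at 62.7, 63.4 and 63.4 CPM in control, 72.3, 73.5 and 77.0 CPM in shRRM2, and 22.4, 20.9 and 23.4 CPM in shRRM2/shp16. All shRRM2 libraries were a little above all control libraries, and all shRRM2/shp16 libraries were far below both. The rise in shRRM2 was 0.23 ± 0.04 on the log2 scale (edgeR adjusted p 1.2e-05), and the change in shRRM2/shp16 was -1.74 ± 0.05 against shRRM2 (5.6e-30) and -1.51 ± 0.05 against control (1.2e-27). The small rise in shRRM2 was not called with limma on the authors' 9 RPKM columns (adjusted p 0.638 to 0.770), where the shRRM2 c column gives WNT5B at 62.9% of the value its count file gives.

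WNT2 (ENSG00000105989, chr7:117275451-117323289, minus strand), a ligand known from lung development, was low, on 52 to 163 counts per library. It was at 5.24, 6.48 and 5.004 CPM in control, 4.44, 3.00 and 3.96 CPM in shRRM2, and 8.24, 8.12 and 8.65 CPM in shRRM2/shp16. The groups did not overlap, with shRRM2 lowest and shRRM2/shp16 highest. The change was -0.55 ± 0.14 in shRRM2 against control (edgeR adjusted p 0.0010), 1.14 ± 0.13 in shRRM2/shp16 against shRRM2 (7.3e-10), and 0.58 ± 0.12 against control (4.5e-05), all log2. The first of these was not called with limma on the 9 RPKM columns (adjusted p 0.237 to 0.300), where the shRRM2 c column gives WNT2 at 149% of its count-derived value.

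FZD7 (ENSG00000155760, chr2:202034587-202038445, plus strand), a Frizzled receptor encoded in 1 exon, was at 276, 272 and 258 CPM in control, 148, 145 and 143 CPM in shRRM2, and 188, 189 and 193 CPM in shRRM2/shp16. The shRRM2 libraries were lowest, those of shRRM2/shp16 lay between, and no groups overlapped. The log2 fold change was -0.89 ± 0.03 in shRRM2 against control (edgeR adjusted p 1.9e-26), 0.39 ± 0.03 in shRRM2/shp16 against shRRM2 (8.7e-14) and -0.50 ± 0.03 against control (2.1e-18). FZD7 in shRRM2/shp16 was thus still at 70.8% of its mean control level.

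LRP6 (ENSG00000070018, chr12:12116025-12267012, minus strand), the co-receptor of the beta-catenin branch, moved little. It was at 99.2, 104 and 104 CPM in control, 122, 119.9 and 123 CPM in shRRM2, and 107, 107 and 109 CPM in shRRM2/shp16. The shRRM2 libraries were highest, by 0.25 ± 0.04 over control (edgeR adjusted p 1.0e-07), and shRRM2/shp16 differed from shRRM2 by -0.18 ± 0.04 (3.3e-05), both log2. The latter was not called with limma on the 9 RPKM columns (adjusted p 0.137 to 0.168). Against control, shRRM2/shp16 did not overlap, as in 66.2% of tested genes, but the change of 0.07 ± 0.04 was not called (adjusted p 0.0903, 95% interval -0.0032 to 0.14). It was called in 6 alternatives (adjusted p 0.0023 to 0.0436), and scaling by total counts in place of TMM would add 0.10 to every log2 fold change of this comparison.

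**Figure D2:**
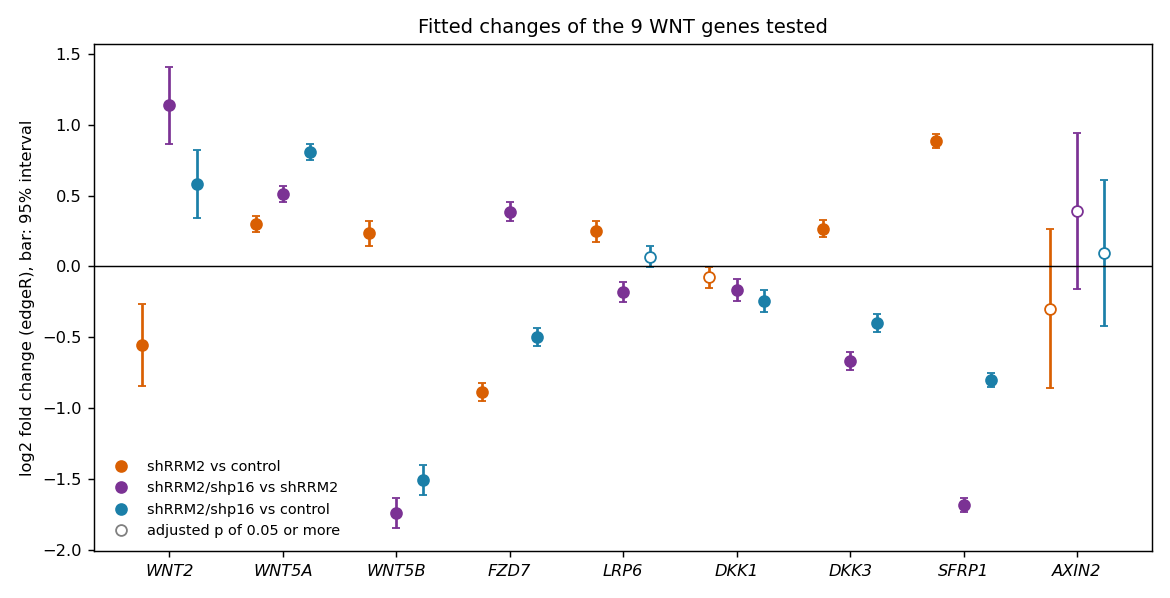
Log2 fold change (edgeR) of the 9 genes tested in the 3 comparisons, with 95% intervals as bars and open symbols where the adjusted p is 0.05 or more. WNT5B and SFRP1 have the lowest values, both in shRRM2/shp16 against shRRM2, and the AXIN2 intervals all span 0.

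SFRP1 (ENSG00000104332, chr8:41261958-41309497, minus strand), which binds WNT ligands, was the most abundant of the 10 genes. It was at 1315, 1377 and 1358 CPM in control, 2468, 2481 and 2524 CPM in shRRM2, and 768, 775 and 778 CPM in shRRM2/shp16. The groups were far apart for their spread, with shRRM2 on top and shRRM2/shp16 at the bottom. The log2 fold change was 0.88 ± 0.02 in shRRM2 against control (edgeR adjusted p 3.7e-31), -1.69 ± 0.02 in shRRM2/shp16 against shRRM2 (1.7e-41) and -0.80 ± 0.02 against control (9.9e-30). SFRP1 in shRRM2/shp16 was 31.1% of its mean shRRM2 level.

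DKK3 (ENSG00000050165, chr11:11963106-12009769, minus strand), the divergent member of the Dickkopf family, had the same order of groups at smaller size. It was at 620.3, 568 and 559.7 CPM in control, 709, 709 and 689 CPM in shRRM2, and 456, 443 and 428 CPM in shRRM2/shp16. No groups overlapped. The log2 fold change was 0.27 ± 0.03 in shRRM2 against control (edgeR adjusted p 2.8e-10), -0.67 ± 0.03 in shRRM2/shp16 against shRRM2 (6.5e-23) and -0.40 ± 0.03 against control (2.4e-15).

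DKK1 (ENSG00000107984, chr10:52314296-52318042, plus strand), which binds LRP6 and keeps it from WNT, was at 121, 119 and 112 CPM in control, 111, 114 and 109 CPM in shRRM2, and 102, 98.3 and 96.9 CPM in shRRM2/shp16. Control and shRRM2 overlapped, while all shRRM2/shp16 libraries were below both. The value in shRRM2 against control was -0.08 ± 0.04 (edgeR adjusted p 0.0754, not called), and shRRM2/shp16 fell by 0.17 against shRRM2 (SE 0.04, 1.8e-04) and by 0.24 against control (SE 0.04, 2.3e-07), all log2. Without control c the first value was -0.11 and was called (adjusted p 0.0158), as it was with no low-count filter (-0.12, adjusted p 0.0102). DKK1 shares 212 exonic bases with the antisense gene PRKG1-AS1, which had 4 to 13 counts per library.

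DKK2 (ENSG00000155011, chr4:106921802-107283806, minus strand), an LRP5 and LRP6 ligand like DKK1, was near the limit of detection. It had 6, 4 and 2 counts in control, 8, 13 and 15 in shRRM2, and 8, 5 and 5 in shRRM2/shp16. The shRRM2 libraries had the highest CPM, 0.508 to 0.861 against 0.119 to 0.251 in control and 0.249 to 0.423 in shRRM2/shp16, and the last of these groups overlapped control. DKK2 did not pass the low-count filter and so has no call. With no filter, the log2 fold change was 1.73 ± 0.48 in shRRM2 against control (edgeR adjusted p 0.0017) and -1.15 ± 0.44 in shRRM2/shp16 against shRRM2 (0.0348), and with DESeq2 these were 1.79 (0.0220) and -1.18 (0.131). Fits without shRRM2/shp16 b or without shRRM2/shp16 c, which kept DKK2, gave -1.02 and -1.07 for the second and did not call it (adjusted p 0.0684 and 0.0534). Fits without control a, b or c, shRRM2 a or shRRM2/shp16 a also kept DKK2 and called it (-1.17 to -1.43, edgeR adjusted p 0.0101 to 0.0192). All these leave-one-out fits kept DKK2 through shRRM2, where it is highest, so their calls are no independent support.

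AXIN2 (ENSG00000168646, chr17:65528563-65561647, minus strand), a negative regulator induced by beta-catenin and often read as a gauge of it, had 15 to 39 counts per library. It was at 1.09, 1.73 and 1.67 CPM in control, 0.952, 1.67 and 0.918 CPM in shRRM2, and 1.43, 1.94 and 1.29 CPM in shRRM2/shp16. All groups overlapped. The log2 fold change was -0.30 in shRRM2 against control (95% interval -0.86 to 0.26, edgeR adjusted p 0.359), 0.39 in shRRM2/shp16 against shRRM2 (-0.16 to 0.95, 0.216) and 0.09 against control (-0.42 to 0.61, 0.766). Without shRRM2 b the second value was 0.74 and was called (adjusted p 0.0443). Of the 5226 exonic bases of AXIN2, 1316 are shared with AC004805.1 on the same strand, which had 0 or 1 count, and what became of reads there is not given in the sources used here.

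Levels of different genes were compared per length, as RPKM (CPM divided by the gene length in kilobases). SFRP1 led in every group, with a mean of 284, 523 and 163 RPKM in control, shRRM2 and shRRM2/shp16, and was above 99.2% or more of the tested genes in each. In control it was followed by DKK3 (115), FZD7 (69.5), WNT5A (63.7) and DKK1 (53.0), then by WNT5B (14.7), LRP6 (9.93) and WNT2 (1.86), with AXIN2 (0.286) and DKK2 (0.0459) last. In shRRM2 the order changed in the middle, to DKK3 (139), WNT5A (78.2), DKK1 (50.4) and FZD7 (37.7). In shRRM2/shp16 WNT5A (111) passed DKK3 (87.4), and WNT5B (5.17) dropped below LRP6 (10.4). No neighbours in these orders overlapped between libraries, apart from AXIN2 and DKK2 in shRRM2.

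**Figure D3:**
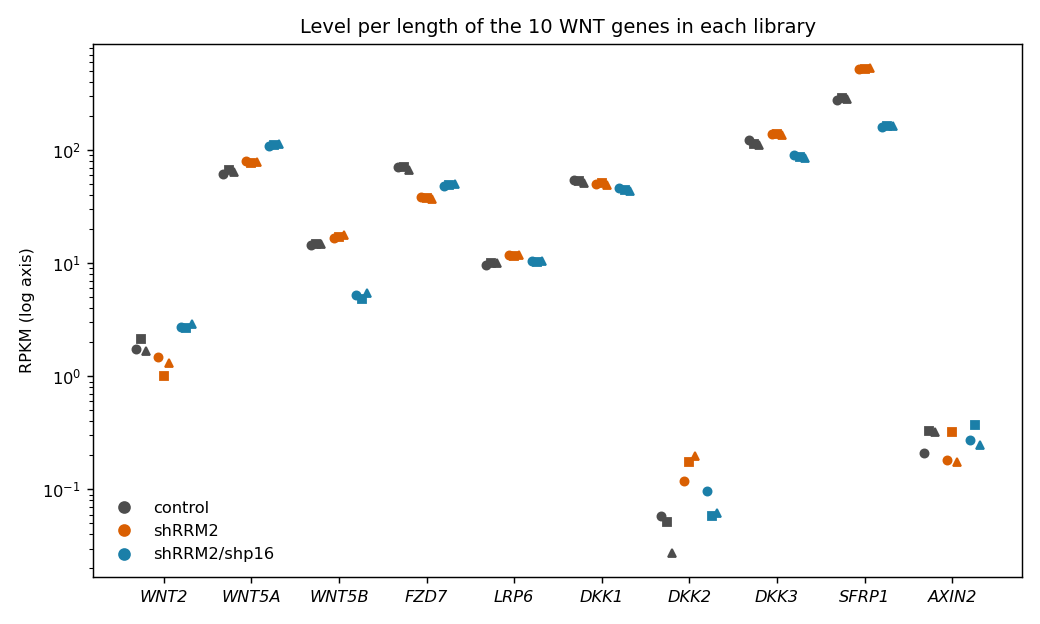
RPKM of the 10 genes in each library on a log axis, coloured by group. SFRP1 leads in each group, WNT5A passes DKK3 in shRRM2/shp16, and DKK2 and AXIN2 stay under 1 RPKM in all 9 libraries.

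Summed over the WNT ligand genes with counts, 16 of the 19 listed, the level was 84.9 ± 2.75 RPKM in control (mean ± SD, n = 3), 103 ± 1.69 in shRRM2 and 128 ± 2.37 in shRRM2/shp16. WNT5A made up 75.0% of this sum in control, 75.6% in shRRM2 and 87.3% in shRRM2/shp16, and WNT5B made up 17.3%, 16.7% and 4.05%. The ratio of WNT5A to WNT5B was 4.34 in control, 4.54 in shRRM2 and 21.6 in shRRM2/shp16. Of the 16 genes listed as extracellular antagonists, 14 had counts (KREMEN1 and SFRP4 had 0). These 14 summed to 454 ± 4.46 RPKM in control, 714 ± 3.50 in shRRM2 and 297 ± 2.39 in shRRM2/shp16. SFRP1 held 62.5%, 73.3% and 54.6% of this sum, and DKK3, the divergent Dickkopf, held 25.4%, 19.4% and 29.4%. SFRP1 exceeded WNT5A 4.45 times in control, 6.69 times in shRRM2 and 1.46 times in shRRM2/shp16. The sum of antagonists over the sum of ligands was 5.35, 6.90 and 2.33. FZD7 held 46.0% of the Frizzled sum in control, 35.7% in shRRM2 and 46.1% in shRRM2/shp16, while the sum itself was 151, 105 and 107 RPKM. These sums describe transcript and not protein, and no test was run on them.

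**Figure D4:**
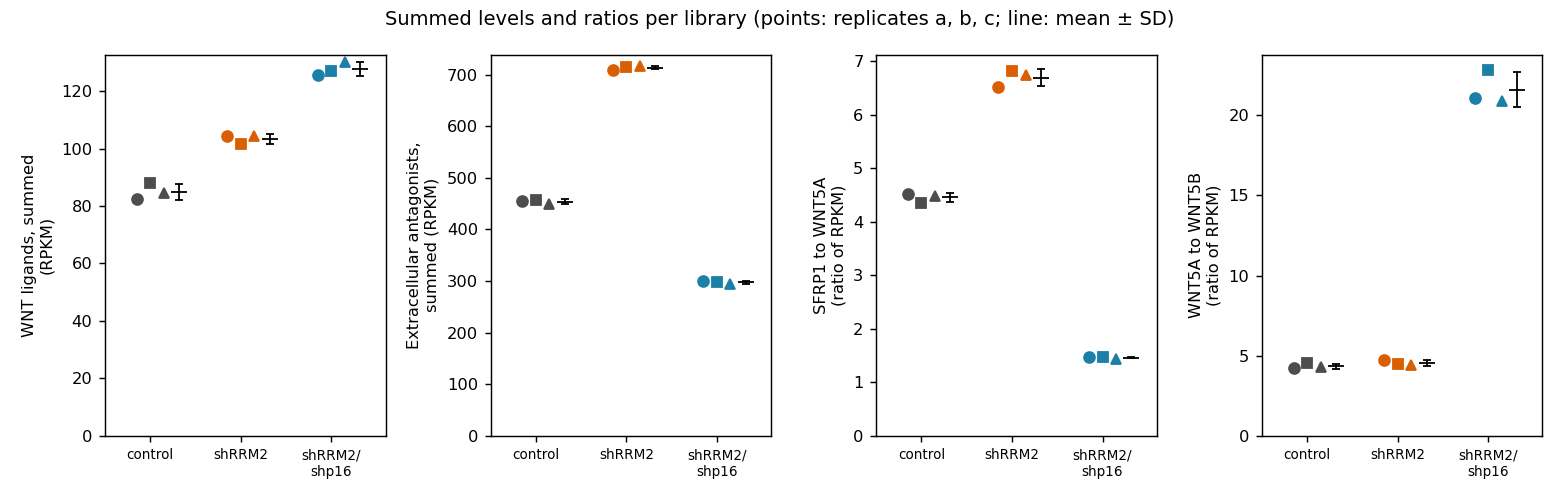
Summed RPKM of the WNT ligands and of the extracellular antagonists, and the RPKM ratios SFRP1 to WNT5A and WNT5A to WNT5B, in each library (points) with the mean and SD (bars). The antagonist sum is highest and SFRP1 to WNT5A largest in shRRM2, and WNT5A to WNT5B is about 21.6 in shRRM2/shp16 against 4.34 in control.

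The wider pathway was read from a list of 93 genes in 8 roles, of which 62 were tested, the 9 genes above included. In shRRM2 against control 43 were called, 20 higher and 23 lower (median log2 value -0.08). In shRRM2/shp16 against shRRM2, 46 were called, 26 higher and 20 lower (median 0.16), and in shRRM2/shp16 against control 48, 26 higher and 22 lower (median 0.07). These shares, 69.4%, 74.2% and 77.4%, stand beside the background of 60.9%, 61.1% and 62.4%. With limma on RPKM values and a pseudocount of 0.1, 67.5% of the listed genes called in shRRM2/shp16 against shRRM2 were higher, against 56.5% with edgeR.

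By role, 7 of the 19 ligands passed the filter and 12 did not. Besides the 3 ligands described above, WNT16 was at 11.4 ± 0.473 CPM in control (mean ± SD, n = 3), 18.7 ± 0.761 in shRRM2 and 23.1 ± 1.77 in shRRM2/shp16, and rose by 0.71 ± 0.08 in shRRM2 (log2, edgeR adjusted p 4.1e-10) and by 1.01 ± 0.08 in shRRM2/shp16 against control (1.9e-15). WNT7B, on 11 to 52 counts, had a log2 fold change of -1.08 ± 0.25 in shRRM2 and -1.61 ± 0.26 in shRRM2/shp16 against control (edgeR adjusted p 2.4e-04 and 7.4e-07). Of all tested genes, 29.0% were called higher and 31.8% lower in shRRM2 against control, and 31.9% higher and 29.1% lower in shRRM2/shp16 against shRRM2. Beside that, 5 of the 15 receptors tested were higher and 7 lower in the former comparison, 80.0% called, and 5 higher and 8 lower in the latter, 86.7% called. ROR2, a receptor for WNT5A, had 25.5 ± 1.39 CPM in control, 15.8 ± 0.850 in shRRM2 and 34.2 ± 1.49 in shRRM2/shp16. It fell by 0.69 in shRRM2 (log2, SE 0.07, 1.9e-11) and rose by 1.11 in shRRM2/shp16 against shRRM2 (SE 0.07, 1.2e-18).

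RSPO3, an R-spondin that strengthens WNT signals through LGR receptors, was at 3.37 ± 0.102, 2.78 ± 0.405 and 13.1 ± 0.286 CPM in control, shRRM2 and shRRM2/shp16. It rose by 2.23 ± 0.12 in shRRM2/shp16 against shRRM2 (log2, edgeR adjusted p 3.4e-20) and by 1.95 ± 0.11 against control (1.8e-19), while shRRM2 against control gave -0.28 (0.128, not called). Of the 12 nuclear factors, 2 were higher and 5 lower in shRRM2 against control, and the 58.3% called is near the background of 60.9%. In shRRM2/shp16 against shRRM2 7 were higher and 2 lower, 75.0% called beside a background of 61.1%. LEF1, a DNA-binding partner of beta-catenin, was at 2.15 ± 0.268, 1.83 ± 0.318 and 5.20 ± 1.07 CPM in the 3 groups and rose by 1.497 ± 0.18 in shRRM2/shp16 against shRRM2 (1.9e-09). Of the 13 relay proteins of the cytoplasm, 76.9% were called in each of these comparisons, 4 higher and 6 lower and then 5 and 5, beside the same backgrounds.

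Of the 6 listed target genes, AXIN2, NKD1, CCND1 and TNFRSF19 were tested, and they did not move together. CCND1, the cyclin of early cell cycle progression, was at 1429 ± 56.1, 1974 ± 31.1 and 714 ± 9.64 CPM in control, shRRM2 and shRRM2/shp16, a change of 0.47 ± 0.03 in shRRM2 against control (log2, edgeR adjusted p 6.2e-20) and -1.47 ± 0.03 in shRRM2/shp16 against shRRM2 (3.6e-38). TNFRSF19, a receptor of the TNF receptor family, was at 111 ± 1.40, 41.0 ± 1.20 and 164 ± 3.84 CPM, a change of -1.44 ± 0.04 (5.7e-30) and 2.00 ± 0.04 (2.6e-36) in the same comparisons. Low-count genes named after their values were seen were FZD3, NKD1 and NOTUM. FZD3, a Frizzled receptor, had 8 to 10 counts in control, 15 to 27 in shRRM2 and 20 to 36 in shRRM2/shp16. NKD1, an inhibitor of WNT signalling, had 3 to 7 counts in control, 4 to 12 in shRRM2, which overlaps control, and 17 to 20 in shRRM2/shp16. Its log2 fold change in shRRM2 against control was 1.24 (95% interval 0.23 to 2.24, edgeR adjusted p 0.0295). NOTUM, a secreted WNT deacylase, had 2 to 8 counts in control, 2 to 4 in shRRM2 and 15 to 25 in shRRM2/shp16. Both NKD1 and NOTUM passed the low-count filter only through shRRM2/shp16, where they are highest, and both are among the tested genes of the list. Also seen afterwards, KREMEN1 had 0 counts in every library, yet the authors' deposited table gives it a log2 fold change of 0.44 (q 0.513) in shRRM2/shp16 against shRRM2, so 0 counts here do not show absence.

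**Figure D5:**
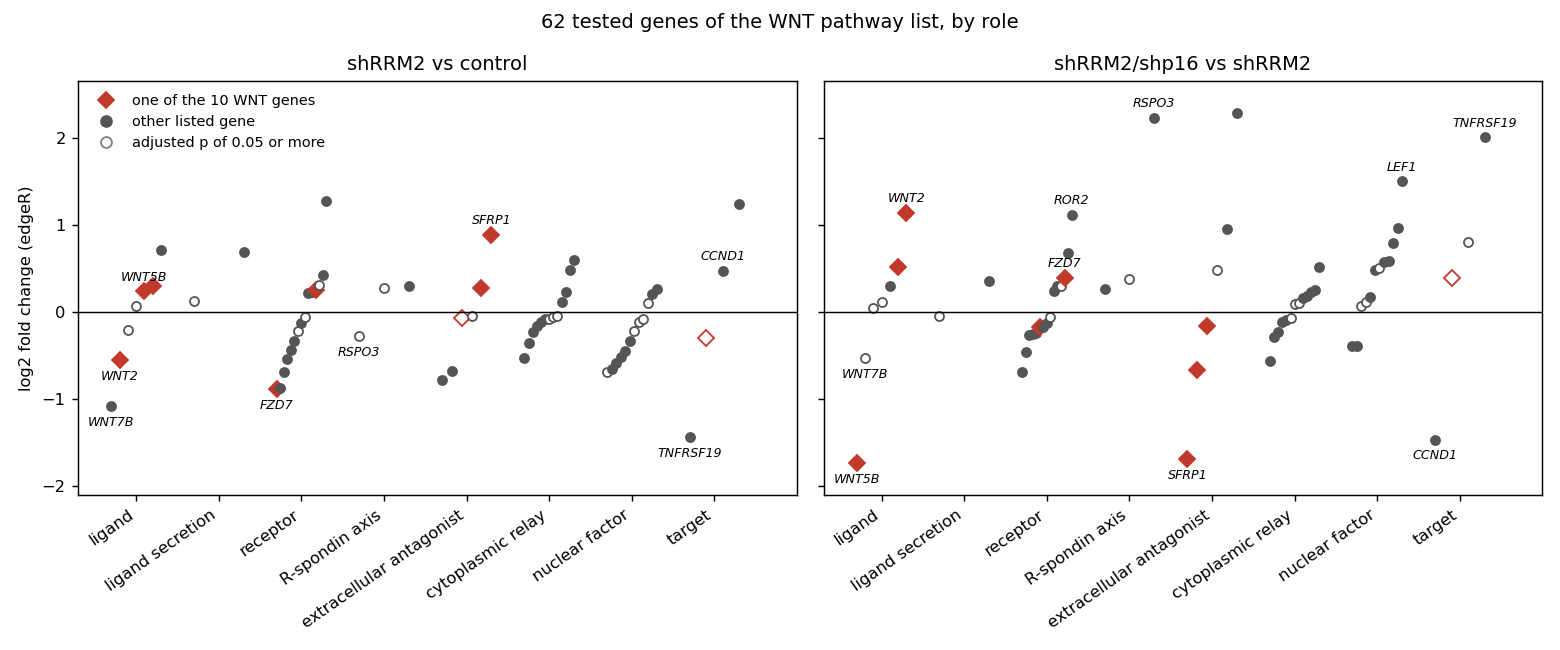
Log2 fold changes (edgeR) of the 62 tested genes of the WNT list by role, in shRRM2 against control (left) and in shRRM2/shp16 against shRRM2 (right). Diamonds are the genes followed here, circles the other listed genes, and open symbols have an adjusted p of 0.05 or more; both panels use the shRRM2 libraries.

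The genes with the most similar pattern were found over the 9 libraries by distance between centred log2 CPM values, 2 for each tested gene. For WNT5A they were TBK1 (root mean square difference 0.03 log2 units) and ARID4B (0.04), for WNT5B DUSP5 (0.05) and KRT18 (0.05), and for WNT2 ALDH3A2 (0.12) and MBNL3 (0.14). For FZD7 they were CDK5RAP2 (0.03) and SET (0.04), and for LRP6 PEAK1 (0.02) and LPP (0.02). For SFRP1 they were GALNT5 (0.06) and UACA (0.06), for DKK3 RCN3 (0.02) and ZDHHC7 (0.04), and for DKK1 TCF25 (0.03) and URB1 (0.03). AXIN2 had no close match, with RBM26-AS1 at 0.19 and DLL3 at 0.22.

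The authors' deposited table gives its own test of shRRM2/shp16 against shRRM2 and marks 6 of the 10 genes as significant. In the authors' deposited table the log2 fold changes of these are 1.16 for WNT2, 0.49 for WNT5A, -1.79 for WNT5B, 0.42 for FZD7, -0.67 for DKK3 and -1.65 for SFRP1. The other 4 in the authors' deposited table are LRP6 at -0.18 (q 0.656), DKK1 at -0.17 (q 0.161), DKK2 at -1.23 (q 1) and AXIN2 at 0.87 (q 0.0862). The count-based fit called LRP6 and DKK1 at nearly the same size of change. For AXIN2 the 2 sources differed most, at 0.87 in the authors' deposited table and 0.39 from the counts.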

How the data were processed

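RNA was ribosome-depleted and made into stranded libraries, per the labels' protocols. The authors deposited raw counts by Ensembl gene, 1 file a library, in HTSeq layout per the file headers and tally lines. The strand setting is not given in the sources used here. TopHat2 2.0.9, Cufflinks 2.0.2, Cuffdiff and GRCh38 are named in the submitters' processing notes. A table of the authors holds log2 RPKM columns, found here to be log2(RPKM/1000 + 1), and a Cuffdiff comparison with a log2 fold change, a p-value and a q-value, per the file headers. Of its 9 log2 RPKM columns, 8 match the deposited counts in 99.5 to 100% of genes with at least 200 counts, within 0.1%. The shRRM2 c column matches in 0.748%, so counts were used throughout. Another 2 columns, whose names show no group, were not used.

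Counts were fitted with edgeR 4.0.16 in R 4.3.3 (filterByExpr, TMM, quasi-likelihood) with all 9 libraries in 1 model of 3 groups and 6 residual degrees of freedom. The 16561 genes kept held 99.8% of the counts. Tests were two-sided, with Benjamini-Hochberg adjustment over all tested genes and a threshold of 0.05. The quasi-likelihood tests and the intervals used variances moderated over all tested genes, with more degrees of freedom than the 6 residual ones. Standard errors are the log2 fold change over the root of F. RPKM used the gene lengths implied by the authors' columns. Read counts without molecular identifiers cover counting error only in part. Lines that name no gene were left out, and the no-feature share is in the report. The code of the fit was also run on simulated counts, with few changed genes and a common dispersion for all genes. That setting differs from these data, so the run does not bear on the calls here.

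The genes and lists were chosen with earlier results of these data known. All 10 genes were named, as were other listed genes called with at least a 2-fold change and mean log2 CPM no lower than 0, and the 2 nearest genes of each. Positions come from GENCODE release 29. The check against blood cell markers is not reported here. Same-letter libraries did not deviate together (correlations -0.02 to 0.04 over 9 pairs), so letters were not treated as pairs. Chi-square per degree of freedom was 1.44 to 2.95 between libraries of 1 group, above sampling noise in all 9 pairs. Alternatives were RLE factors, DESeq2 1.42.0, other filters, only the 6 libraries compared, a replicate block, leaving out each library, and limma 3.58.1 on RPKM with a pseudocount of 1 on the deposited scale or of 0.1 RPKM. The fit to the 8 matching columns was chosen after seeing the data.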

Additional observations from a re-analysis of the deposited data

How the results depend on the processing

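None of the 27 gene results changed direction where it was called, over 19 alternatives, and 21 kept their side of the threshold in every one of those run. The others were WNT2, WNT5B and DKK1 in shRRM2 against control, LRP6 and AXIN2 in shRRM2/shp16 against shRRM2, and LRP6 in shRRM2/shp16 against control. The calls of WNT2, WNT5B and LRP6 that were lost with limma on all 9 RPKM columns were made with limma on the 8 columns that match the counts. Leaving out each library in turn gave 7 to 9 called genes of the 9 or 10 tested in shRRM2 against control. The range was 8 to 9 in shRRM2/shp16 against shRRM2 and 7 to 7 in shRRM2/shp16 against control. In the same order it was 38 to 44, 44 to 48 and 44 to 48 for the WNT list, and 9459 to 10125, 9520 to 10366 and 9744 to 10545 for all genes. Fits without shRRM2 b or shRRM2 c did not test DKK2. The others kept DKK2 through shRRM2, where it is highest, and called it in shRRM2 against control, which adds to the counts but is no independent support. With limma on the deposited log2 RPKM and a mean RPKM of at least 1, 6575 genes were called in shRRM2 against control in place of 10079, among 12094 tested. With limma on the deposited values 62.4% of all calls in shRRM2/shp16 against shRRM2 were higher, against 52.3% with edgeR, and 59.5% against 48.1% in shRRM2/shp16 against control.

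Letters a, b and c mark no stated pairing. With them as a replicate block, 7, 8 and 7 of the 9 genes tested were called. The same fit called 43, 48 and 48 genes of the list, and 10101, 10134 and 10388 of all 16561 genes tested. Counts were lowest for DKK2 (2 to 15 per library), AXIN2 (15 to 39) and WNT2 (52 to 163).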
